A study of Anas platyrhynchos x Cairina moschata with 137 samples.

Results

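The first days after hatching were described by setting the livers of mule ducks taken 4 days after hatching (D4) against livers taken 1 day after hatching (D1). All animals labelled with either day were used, which gave 20 animals on D4 and 19 on D1, 39 of the 137 animals of the series. The remaining animals were embryos of embryonic days 12, 16, 20, 24 and 28 (E12 to E28), with 19 or 20 per stage, and each animal gave 1 liver at 1 stage. Mule ducks are the sterile hybrid of the common duck (Anas platyrhynchos) and the Muscovy duck (Cairina moschata), and here all eggs came from 1 genotype of mothers and were incubated together. D1 ducklings were sampled before any meal. D4 ducklings had been moved, after the D1 sampling, from the hatcher to a cooler rearing room with free access to a starter feed. Age, first feeding, room temperature and housing therefore changed together between the days and cannot be told apart. Whether the days also differed in the laboratory runs was not tested.

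Transcripts in liver RNA were quantified by real-time PCR in microfluidic chips, with 50 target rows and 5 reference rows. The threshold cycle (Ct) is the PCR cycle at which fluorescence passes a set level, and a later Ct means less template. Relative expression is the amount of a target against its own mean over all animals, divided by the geometric mean of the same quantity for the references. It shows how a row changes between animals and does not compare the level of different rows. The panel was chosen by the study to cover development, carbohydrate metabolism, lipid metabolism and cellular stress. The tables number their rows without gene names, and the list of gene accession numbers that the study says accompanies its record was not used here, so genes and pathways stay unnamed here and the liver identity of the samples could not be checked with markers.

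A bird embryo burns mainly fat taken up from the yolk. Once hatched, birds begin to eat carbohydrate-rich feed, and the liver, the main site of fatty acid synthesis in birds, then makes lipid from glucose. Fatty acid synthase builds palmitate from acetyl-CoA and malonyl-CoA, stearoyl-CoA desaturase introduces a double bond into the product, and hexokinases trap glucose in the cell as glucose 6-phosphate. Hatching also brings lung respiration and the first regulation of body temperature by the duckling itself. Heat shock proteins, which assist protein folding, and glutathione transferases, which detoxify reactive compounds, are classes of stress genes studied in this setting.

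With the 5 references of the study, most of the panel was higher on D4. Of the 50 target rows, 36 were higher on D4 than on D1 and 4 were lower, while 10 did not pass the test (limma on log2 relative expression, adjusted p under 0.05 over the 50 rows). These counts are 72% and 8% of all rows tested, and since the whole panel is described they are themselves the background. The difference, D4 minus D1, was positive in 42 rows and negative in 8, and its median over the 50 rows was 1.41 on the log2 scale, a 2.67-fold higher relative expression on D4. The balance depended on the normalization. It was 10 rows higher and 20 lower (median -0.25) with reference row 53 alone, and 50 higher and 0 lower (median 4.22) with row 54 alone. The mean of the target rows in place of the references gave 19 higher and 17 lower, but this centring sets the median near 0 by construction. Among the 36 higher rows the median difference was 1.898, or 3.73-fold, and the smallest was 0.40. A difference of at least 1 was reached by 31 of the 36 higher rows and a difference of at least 2 by 14. Of the 4 lower rows, 2 had a difference of at least 1 downward. For row 50, which is among these 2, the difference was as small as -0.94 when 1 animal was left out.

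**Figure D1:**
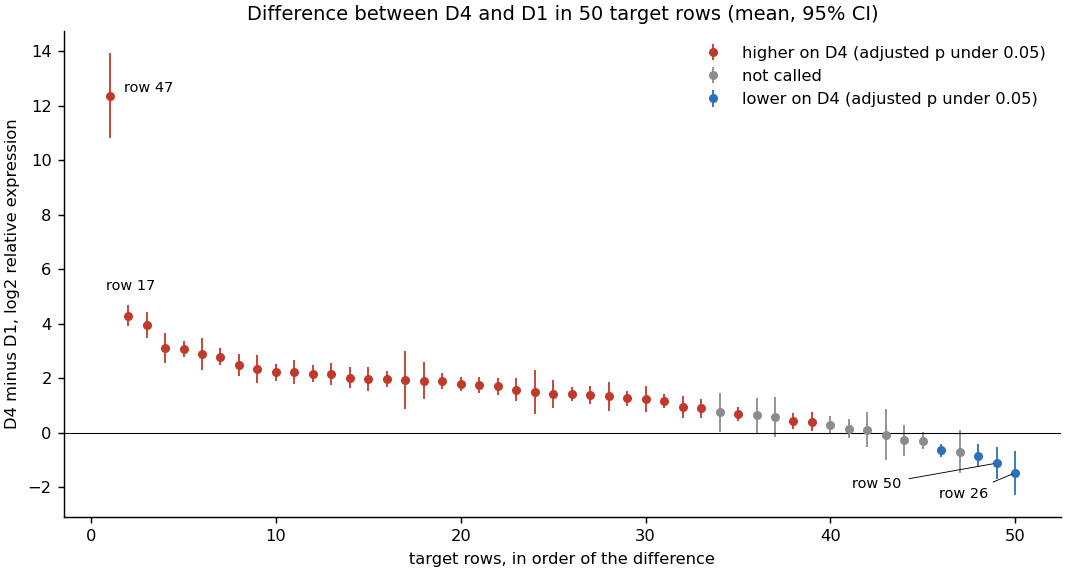
Difference in mean log2 relative expression, D4 minus D1, for each of the 50 target rows in order of size, with the 95% confidence interval as a bar. Points above 0 are higher on D4. The 36 rows called higher fill most of the upper range, row 47 stands apart at 12.37 and row 26 is the lowest at -1.48.

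The animals of the days were completely separated in part of these rows. In 14 of the 50 rows (28%) the lowest D4 animal lay above the highest D1 animal, and in 0 rows (0%) did all D4 animals lie below all D1 animals. The count of 14 moved to between 2 and 36 with 1 reference row alone, and to 9 with dropped values restored from the Ct. The 10 rows without a call had differences between -0.71 and 0.74. Their 95% confidence intervals reached down to -1.50 and up to 1.45, and in 5 of them the interval lay within 1 in either direction, while the intervals of the other 5 also held changes of more than 2-fold. The tests rested on 15 to 20 animals per row on D4 and 7 to 19 on D1, and 2 rows had fewer than 10 values on a day.

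The largest difference was that of row 47. Its relative expression on D4 had a lowest value of 79.0, a median of 290 (289.67) and a highest value of 428, against a lowest value of 0.000281, a median of 0.0924 and a highest value of 0.430 on D1. All 20 D4 animals lay far above the 10 D1 animals with a value. The mean was 257 ± 131 (SD, n = 20) on D4 and 0.137 ± 0.145 (SD, n = 10) on D1. On the log2 scale the difference was 12.37 with a standard error of 0.76 and a 95% confidence interval of 10.82 to 13.92 (limma, adjusted p = 4.8e-16), which is a 5300-fold difference between geometric means. The size of this fold rests on a D1 signal close to the limit of the assay. The mean Ct was 13.5 on D4 and 26.7 on D1, and on D1 only 11 of 19 animals gave a Ct, against 20 of 20 on D4. The log2 SD was 0.92 on D4 and 3.43 on D1, against medians over the rows of 0.62 and 0.56. The D1 animals with a value were thus spread over many cycles. The difference in spread did not pass after adjustment (2-sided permutation test of the absolute deviation from the day median, p = 0.0075, adjusted p = 0.092). With the missing Ct set to the last PCR cycle, 35, the difference was 15.87, and with a pseudocount of 0.1 it was 10.07.

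Row 17 had the second largest difference and was measured well on both days. Its relative expression had a lowest value of 17.4, a median of 44.6 and a highest value of 76.9 on D4, against a lowest value of 0.969, a median of 2.07 and a highest value of 4.18 on D1. The ranges were again separate, with the lowest of the 20 D4 animals above the highest of the 18 D1 animals with a value. The mean was 45.9 ± 18.04 (SD, n = 20) on D4 and 2.33 ± 0.945 (SD, n = 18) on D1. The difference was 4.29 with a standard error of 0.19 and an interval of 3.90 to 4.69, or 19.6-fold (limma, adjusted p = 3.0e-22). Its mean Ct was 8.54 on D4 and 13.97 on D1. The next largest difference in the panel was 3.93, or 15.3-fold, close to that of row 17 and far below that of row 47.

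**Figure D2:**
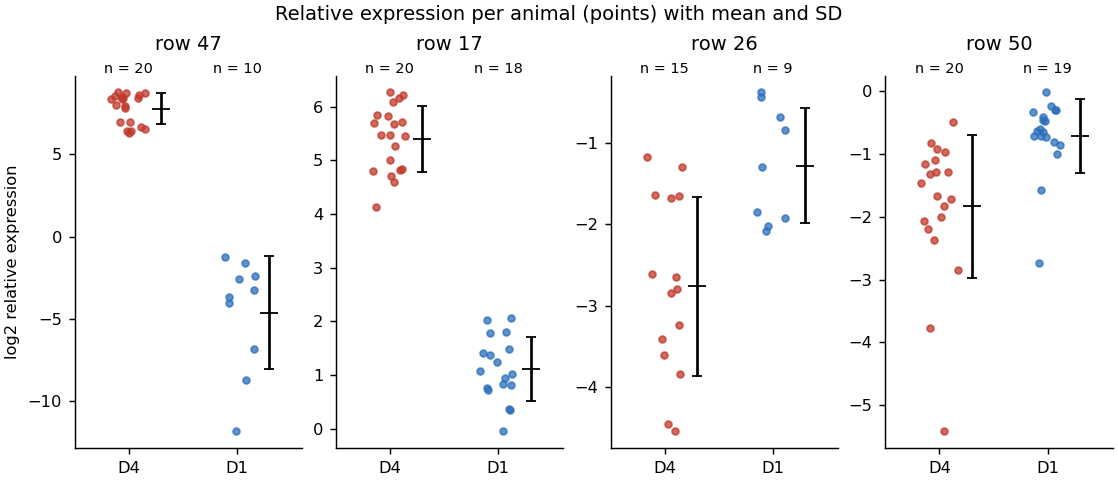
Log2 relative expression of rows 47, 17, 26 and 50, with a point for each animal and the mean and SD beside the points; D4 stands left of D1 and each panel has its own axis. The days are separate in rows 47 and 17 and overlap in rows 26 and 50.

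The 4 rows lower on D4 were rows 26, 50, 10 and 4, of which rows 10 and 4 were singled out after their values were seen. Row 26 had a relative expression of 0.0430 at the lowest, 0.144 at the median and 0.442 at the highest on D4, against 0.235, 0.405 and 0.766 on D1. The days overlapped, with 10 of the 15 D4 animals with a value below all 9 D1 animals with one. The difference was -1.48 with a standard error of 0.39 and an interval of -2.28 to -0.68 (limma, adjusted p = 0.00108), a 2.79-fold lower value on D4. Row 26 was amplified late on both days, at a mean Ct of 24.2 on D4 and 24.0 on D1, and lacked a Ct in 5 of 20 D4 animals and 10 of 19 D1 animals. With those missing values set to cycle 35 its difference turned to 1.68 (limma, adjusted p = 0.327).

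Row 50 was measured in all 39 animals. On D4 its relative expression had a lowest value of 0.0234, a median of 0.339 and a highest value of 0.713, against 0.151, 0.643 and 0.989 on D1. The ranges overlapped broadly, although 17 of the 19 D1 animals lay above the D4 median and 8 lay above all D4 animals. The difference was -1.12 with a standard error of 0.28 and an interval of -1.70 to -0.55 (limma, adjusted p = 4.3e-04), a 2.18-fold lower value on D4. Row 10 had a difference of -0.85 (standard error 0.21, limma adjusted p = 3.3e-04) over 19 D4 and 16 D1 animals. Row 4 had a median relative expression of 1.69 on D4, with a range of 1.21 to 2.86, and of 2.70 on D1, with a range of 1.71 to 4.11. Its difference was -0.65 (standard error 0.12, limma adjusted p = 3.2e-06), and 12 of the 20 D4 animals lay below all 19 D1 animals.

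The reference rows themselves shifted between the days, in unequal amounts and in opposite directions. They had been selected by the study for stability over the 7 stages, and 1 of the 5 is luciferase, a foreign RNA added to each reverse transcription, while the others are cellular transcripts; which of the numbered rows is luciferase is not given in the tables. Row 51 had a mean Ct of 14.52 ± 0.83 on D4 and 16.76 ± 0.48 on D1, row 52 of 15.14 ± 0.64 on D4 and 17.03 ± 0.48 on D1, and row 53 of 12.80 ± 0.85 on D4 and 15.69 ± 0.48 on D1 (SD, n = 20 and 19). The differences of these rows, D4 minus D1, were -2.24, -1.895 and -2.89 cycles, so all came up earlier on D4.

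Row 54 went the other way. Its mean Ct was 11.29 ± 0.52 on D4 and 9.70 ± 0.31 on D1, a difference of 1.59 cycles, and the Ct of all 20 D4 animals was later than that of every D1 animal. Row 55 had 18.99 ± 0.56 on D4 and 19.64 ± 0.54 on D1, a difference of -0.66 cycles. The mean Ct differed between the days in each row (2-sided permutation test with 100000 resamples, adjusted p over the 5 rows = 1.2e-05 for rows 51 to 54, from the smallest p these resamples can give, and 0.00065 for row 55). In row 55 the days overlapped, with 8 of the 20 D4 animals below all D1 animals. The mean shift of the 5 references was -1.22 cycles and the shifts spanned 4.48 cycles between rows 53 and 54. Of the 50 target rows, only row 47 had a difference larger than this span, and the choice of reference was therefore followed through the whole panel.

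**Figure D3:**
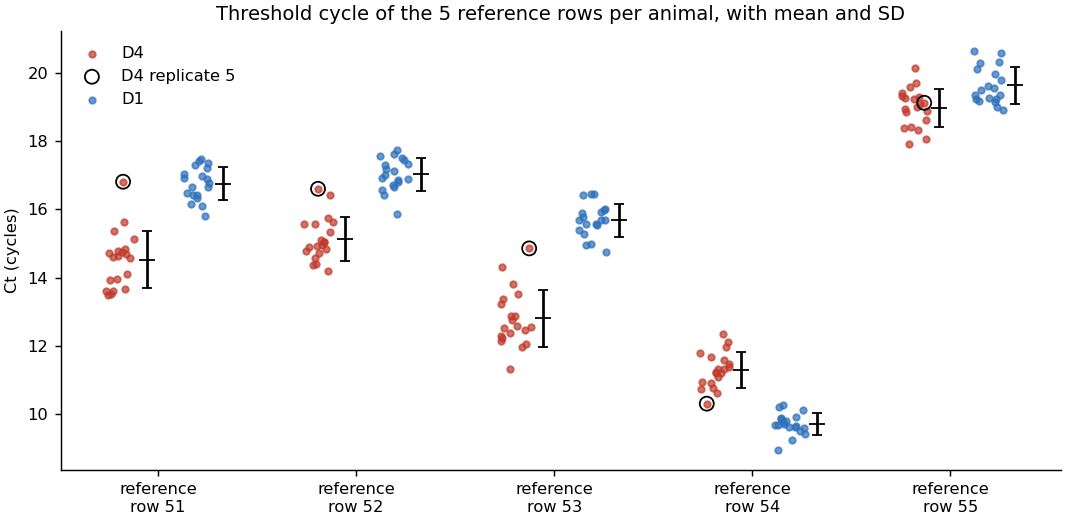
Ct of the 5 reference rows in each animal (points), with the mean and SD beside them; D4 stands left of D1 in each pair and the ring marks D4 replicate 5. Rows 51, 52, 53 and 55 have a lower mean Ct on D4, and row 54 is later in all 20 D4 animals.

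The target rows were also amplified earlier on D4 before any normalization. The mean Ct of 49 of the 50 rows was earlier on D4, with a median difference of -2.66 cycles. The median Ct of an animal over the target rows was 14.4 at the lowest, 15.1 at the median and 16.4 at the highest on D4, against 16.9, 18.1 and 18.7 on D1. The days did not overlap in this measure. Starting RNA had been set to 1 concentration before reverse transcription. Relative expression reports what is left after the reference shift of -1.22 cycles is removed.

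Each reference row was then used alone. With row 54 alone, 50 rows were higher on D4 and 0 lower, with a median difference of 4.22. With row 55 alone the counts were 42 higher and 1 lower, with a median of 1.98, and with row 52 alone 30 higher and 9 lower, with a median of 0.73. Row 51 alone gave 23 higher and 14 lower, with a median of 0.40. With row 53 alone the balance turned, to 10 higher and 20 lower, with a median of -0.25. The same shift is added to nearly every row by a given reference, so the reference moved the whole panel up or down together.

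**Figure D4:**
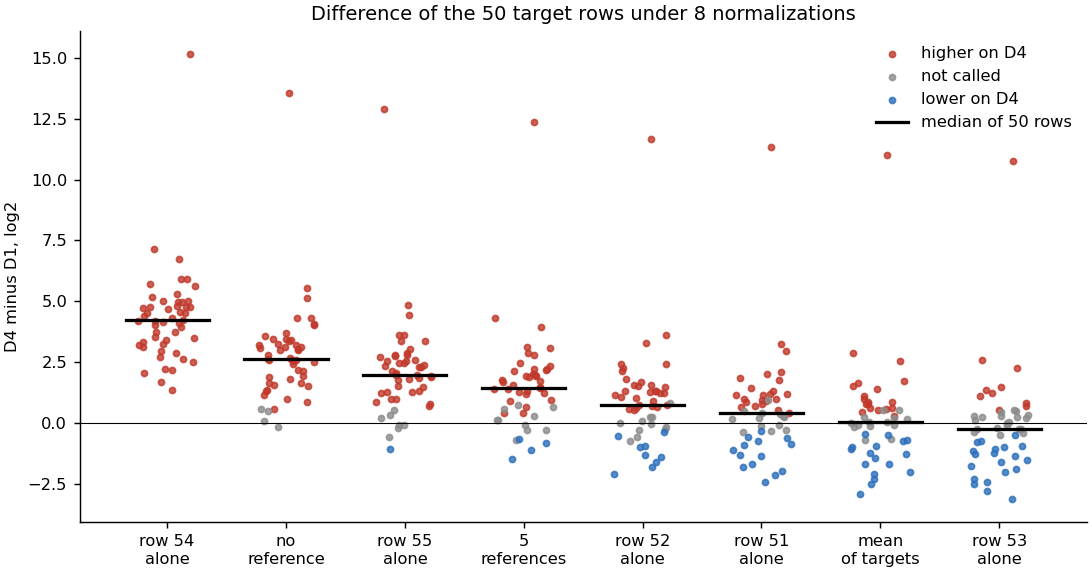
Difference in mean log2 values, D4 minus D1, of the 50 target rows (points, coloured by limma call) under 8 normalizations ordered by their median (black line). The median lies at 4.22 with reference row 54 alone, at 1.41 with all 5 references and at -0.25 with row 53 alone, and the uppermost point under each is row 47.

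Because all rows moved nearly alike, a row kept its call or lost it according to the distance of its difference from 0, and the counts that follow describe that distance only. The 10 rows with the largest differences, all of at least 2.22, were called higher with each of the 5 references alone. A further part of the panel kept a positive sign, so that 21 rows had a positive difference under each reference, and 23 of the 36 higher rows were called higher by at least 4 of the 5. No row was called lower under each of the 5 references. In 20 rows a call of higher with 1 reference stood against a call of lower with another. Row 47 had differences between 10.77 and 15.18 and row 17 between 2.59 and 7.13 over the single references, all called higher. Row 26 was called lower with 4 references, with differences between -3.14 and -1.06, and higher with row 54 alone, at 1.37. Rows 50, 10 and 4 likewise turned to 1.69, 2.07 and 2.16 with row 54 alone, and with row 55 alone they had differences of -0.56, -0.20 and -0.093 that did not pass (limma, adjusted p = 0.11, 0.421 and 0.659).

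The count of separated rows moved with the reference as well. With 1 reference alone, the D4 animals lay completely above the D1 animals in 5 rows (row 51), 5 rows (row 52), 2 rows (row 53), 36 rows (row 54) and 11 rows (row 55), and completely below in 2 rows with row 53 and in 0 rows with each of the others. Row 47 was the uppermost row under every one of these settings.

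An animal of D4 stood apart in the references. The Ct of D4 replicate 5 lay within the range of the D1 animals in rows 51, 52 and 53, whereas 19 of the 20 D4 animals lay below all D1 animals in row 51, 18 in row 52 and 19 in row 53. Without it the test again called 36 rows higher and 4 lower, with a median difference of 1.42, and the number of rows with all D4 animals above all D1 animals was 17 in place of 14. All 20 D4 animals, this one included, were nearer to the profile of their own day than to that of any other stage, and so were all 19 D1 animals. This was measured by the median absolute log2 distance over the rows, on values computed from the Ct. The profile of a stage was the median of its animals in each row, with the animal itself left out. The distance was 0.27 to 0.72 between D4 animals and the profile of their own day, and 1.17 to 2.08 between them and that of D1.

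Missing values were more frequent on D1. A missing Ct can be a reaction without a signal or a Ct that the authors removed for an aberrant or double melting peak. These cases cannot be told apart here, so the counts below are not counts of detection alone. A Ct was missing in 12 of 1000 values on D4 (1.2%), spread over 4 rows and 10 animals, and in 54 of 950 values on D1 (5.68%), spread over 11 rows and 18 animals. In 11 rows the share of animals with a Ct was lower on D1 and in 0 rows was it lower on D4. Row by row, 0 rows passed the 2-sided Fisher exact test after adjustment over the 50 rows, and 4 had an unadjusted p under 0.05. Row 47, with a Ct in 20 of 20 D4 animals and 11 of 19 D1 animals, had p = 0.00123 (Fisher exact test), adjusted p = 0.0614. When animals with a relative expression were counted instead, 20 of 20 and 10 of 19, row 47 was the 1 row that passed (Fisher exact test, adjusted p = 0.0218). The D1 animal lost in that count, D1 replicate 14, had a Ct of 23.5, the earliest of row 47 on D1. That count is therefore not a measure of detection. A further 19 values on D4 and 25 on D1 had a Ct but no relative expression, and 18 of the 19 and all 25 of them would have lain above the values kept for their row and day. With these values restored from the Ct, 36 rows were higher and 4 lower, and 9 rows in place of 14 had separate days.

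With the 5 references, the median SD over the rows was similar on both days, but whether the spread was equal was not tested. In each of the 5 reference rows the SD of the Ct was larger on D4 (0.85 against 0.48 in row 53, 0.56 against 0.54 in row 55). The SD was larger on D4 in some rows and on D1 in others, but the only row whose spread differed after adjustment was wider on D4. The SD of log2 relative expression had a median over rows of 0.62 on D4, with a range of 0.27 to 1.61, and of 0.56 on D1, with a range of 0.20 to 3.43, and it was larger on D4 in 27 of the 50 rows. The spread differed after adjustment in 1 row (2%), row 33, which was singled out after its values were seen, and 10 rows had an unadjusted p under 0.05 (2-sided permutation test of the absolute deviation from the day median). Row 33 had a relative expression of 0.744 at the lowest, 3.61 at the median and 9.47 at the highest on D4, against 0.536, 0.654 and 0.875 on D1. The D1 animals were tightly grouped, and 19 of the 20 D4 animals lay above all of them. Its log2 SD was 0.87 on D4 and 0.20 on D1, a ratio of 4.46. The adjusted p was 5.0e-04 (permutation test), from the smallest p that 100000 resamples can give. With reference row 53 or 55 alone 0 rows passed, and with row 51, 52 or 54 alone more than 1 row passed. The mean difference of row 33 was 2.47 with a standard error of 0.20 (limma, adjusted p = 1.7e-14).

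Seen over the 7 stages with the 5 references, more rows fell than rose in each step between E20 and D1, and more rose than fell between D1 and D4. The last of these depended on the reference, since row 53 alone gave 10 rows higher and 20 lower on D4 than on D1. The counts of the earlier steps are given with the 5 references only, and their dependence on the reference is not described here. The median over the 50 rows of the stage mean, in log2 relative expression, lay at 0.46 (E12), 0.57 (E16), 0.55 (E20), -0.26 (E24) and -0.79 (E28) in the embryo, and after hatching at -1.05 (D1) and 0.65 (D4). In a limma fit of all 7 stages, 6 rows rose and 3 fell between E12 and E16, and 11 rose and 11 fell between E16 and E20. In the same fit 38 rows fell and 1 rose between E20 and E24, 22 fell and 4 rose between E24 and E28, and 26 fell and 14 rose between E28 and D1. Between D1 and D4, 39 rose and 5 fell. The step between E28 and D1 shares its D1 animals with the step between D1 and D4, so only the embryonic steps were compared with the step after hatching by a test.

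**Figure D5:**
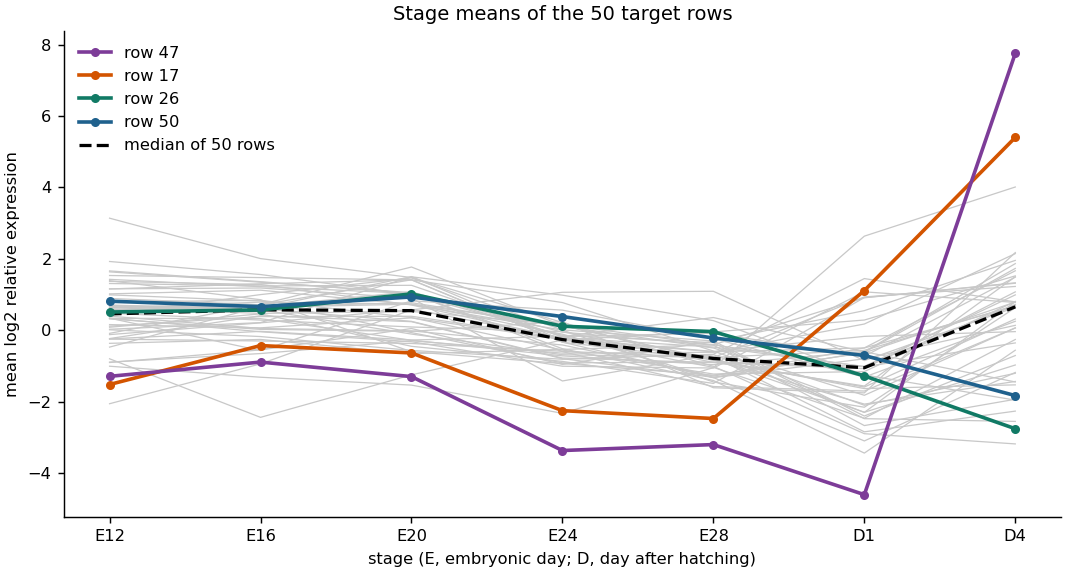
Mean log2 relative expression of each of the 50 target rows at 7 stages (grey lines), with rows 47, 17, 26 and 50 in colour and the median of the rows dashed. The median is lowest on D1, at -1.05, and 0.65 on D4.

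The signed step between D1 and D4 was above the signed step of either late embryonic interval in most rows, which a change of sign alone can give, and the sizes of the steps regardless of sign were not tested. Against the step between E24 and E28, it was higher in 40 rows (80%) and lower in 3 (6%), with a median difference of 1.95 between the steps (limma over 7 stages, adjusted p under 0.05). Against the step between E20 and E24, it was higher in 42 rows (84%) and lower in 1 (2%), with a median of 2.23. Row 47 differed by 12.20 from its step between E24 and E28 (standard error 1.29, adjusted p = 3.2e-15) and row 17 by 4.51 (standard error 0.33, adjusted p = 7.5e-26). Rows 26, 10 and 4 differed from it by -1.33, -1.38 and -0.79 (limma, adjusted p = 0.00987, 3.2e-05 and 7.8e-06), while row 50 did not pass (difference -0.52, adjusted p = 0.105). Against the step between E20 and E24, rows 47 and 17 differed by 14.44 and 5.91 (limma, adjusted p = 1.1e-20 and 1.4e-35) and row 4 by -0.41 (adjusted p = 0.0189), and rows 26, 50 and 10 did not pass (differences -0.57, -0.57 and 0.41, adjusted p = 0.254, 0.0746 and 0.202). With reference row 53 alone, the first count was 18 higher and 15 lower and the second 21 higher and 13 lower.

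The higher rows reached different positions relative to the embryo. All positions given here were read off stage means with the 5 references, without a test. The median difference between D4 and D1 lay between -0.25 (row 53) and 4.22 (row 54) with 1 reference row alone, so positions can depend on the reference. In 20 of the 36, the D1 mean lay below the mean of every embryonic stage, and in 7 it lay above all of them. The D1 mean was also below every embryonic stage in 3 of the 4 lower rows and 7 of the 10 rows without a call. A low D1 mean was therefore not particular to the higher rows. On D4, 18 of the 36 lay above every embryonic stage, 15 lay within the embryonic range and 3 remained below it. Above every embryonic stage on D4 were also 1 of the 4 lower rows and 2 of the 10 rows without a call. In the 36 higher rows the positions combined in several ways. Of these, 7 rows were below the whole embryonic range on D1 and above it on D4, and 10 rows below it on D1 and within it on D4. Row 47 was of the first kind by its means, with embryonic means between -3.37 and -0.89, -4.61 on D1 and 7.76 on D4. Its D1 mean rests on 10 animals with a log2 SD of 3.43, and the D1 median was -3.45, close to the lowest embryonic mean. Whether D1 lay below the embryo in row 47 was not tested. Row 17 was above the embryo on both days, with 1.11 on D1 and 5.40 on D4 against embryonic means between -2.48 and -0.43. Among the lower rows, rows 26, 50 and 10 lay below every embryonic stage on both days, and row 4 lay above every embryonic stage on both days.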

How the data were processed

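Liver RNA of D4 and D1 mule ducks was reverse-transcribed, preamplified and read with EvaGreen dye on Fluidigm arrays. The authors removed Ct with an aberrant or double melting peak. They deposited the Ct of 55 rows and, for 50 of them, the relative expression, a linear ratio of 2 to the power of (mean Ct minus Ct) over the geometric mean of that power for SDHA, GLUT8, PDHA1, POL2 and luciferase. This formula, recomputed from the deposited Ct, gave the deposited ratio to within 0.0028 on the log2 scale. The 5 rows with a Ct only were taken as the references. The assignment of animals to arrays was not used here, so a part of arrays or other laboratory runs in the differences between the days was not tested. The duplicates of the reverse transcription were not given separately. There is no read depth, and precision is set by the number of animals.

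Groups came from the stage in the labels. The main test was limma 3.58.1 (R 4.3.3) on log2 relative expression, D4 minus D1, with no pseudocount or imputation and Benjamini-Hochberg adjustment over 50 rows. Permutation tests used 100000 resamples, except in rows 26 and 32, which had the fewest values on D1. There all splits of the animals with a value were used. These tests were run in Python 3.11.15 with numpy 2.4.6 and scipy 1.17.1. The study's own procedure, ANOVA or Kruskal-Wallis over 7 stages on linear values, was an alternative, beside other references, missing values at cycle 35, an efficiency of 1.9, a pseudocount of 0.1, a minimum of 15 values per day, other tests, replicate blocks and each animal left out. Without gene names, the 2 rows with the largest positive and the 2 with the largest negative called difference were named, with the references. The comparison, rules and tests were chosen with earlier results of these data known. The tests were tried on simulated data.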

Additional observations from a re-analysis of the deposited data

How the results depend on the processing

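Higher and lower counts were 23 and 14 with reference row 51 alone (median difference 0.40), 30 and 9 with row 52 (0.73), 10 and 20 with row 53 (-0.25), 50 and 0 with row 54 (4.22) and 42 and 1 with row 55 (1.98). Without row 51 the median was 1.67 and without row 53 it was 1.83, and without row 54 it was 0.71 with 9 lower rows. With no reference, 46 rows were higher and 0 lower (median 2.62), and rows 50, 10 and 4 turned to 0.093, 0.48 and 0.56, of which only row 4 passed (limma, adjusted p = 0.0145). With the mean of 39 target rows as reference, 19 were higher and 17 lower (median 0.033), a centring that sets the median near 0 by construction. With row 54 alone, rows 26, 50, 10 and 4 turned to 1.37, 1.69, 2.07 and 2.16. Missing Ct at cycle 35 gave a median of 1.75 and turned row 26 to 1.68, and an efficiency of 1.9 for the targets gave a median of 1.22. The study's procedure over 7 stages called 27 rows higher and 1, row 4, lower, and a minimum difference of 1 left 31 higher and 2 lower. The spread test called 2 rows wider on D4 with restored values, 4 with row 51 alone, 3 with row 52, 0 with row 53, 4 with row 54 and 0 with row 55, and 1 wider on D1 with each of rows 52 and 54. Counting animals with a relative expression called 1 row. The step between D1 and D4 against that between E24 and E28 was higher and lower in 21 and 13 rows with row 51 alone, 31 and 5 with row 52, 18 and 15 with row 53, and 50 and 0 with row 54; against E20 to E24, lower rows were 8, 3, 13, 0 and 2 with rows 51 to 55, and 21 were higher with row 53. The cause of these changes was not tested. The replicate numbers did not pair the animals (mean correlation of deviations -0.04 over 19 pairs), and with the replicate number as a block 36 rows were higher and 4 lower, with a median of 1.42. Leaving out each animal in turn gave 39 to 42 called rows, 35 to 38 higher and 4 to 5 lower, and a median of 1.37 to 1.47. The call and direction did not change in rows 47, 17, 26, 50, 10 and 4, and the difference of row 50 ranged between -1.24 and -0.94. The reference differences then ranged between -2.36 and -2.18 cycles in row 51, -1.97 and -1.85 in row 52, -3.00 and -2.81 in row 53, 1.54 and 1.64 in row 54, and -0.72 and -0.60 in row 55. Because the ratio carries the references, the number and direction of smaller changes depend on them. A reference moves large and small differences alike, and the 10 rows called higher with every single reference lie farther from 0.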

Other observations

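Within a day, the median correlation between rows was low, and part of the pairs were correlated more strongly. Over 1225 pairs of rows the Spearman correlation of relative expression across D4 animals had a median of 0.11. Of these pairs, 12.6% were over 0.5 and 3.35% under -0.5. Over 903 pairs with enough values on D1 the median was 0.16, with 8.64% over 0.5 and 0.33% under -0.5. For the Ct before normalization the medians were 0.34 on D4 and 0.49 on D1. These values are a description without a test, since the rows of an animal share its cDNA and its references.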
